A study of Homo sapiens with 6 samples.

Results

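The genes described here encode the protein parts of the core spliceosome, the machine that removes introns from pre-mRNA. They were taken from the table by name, as the protein-coding rows whose symbol begins with SNRP, SF3A, SF3B or PRPF, without the kinase gene PRPF4B, or is LSM and a digit, together with U2AF1, U2AF2, EFTUD2, SNRNP70 and SNRNP200. This gave 51 genes of the 32896 rows of the table, of which 18000 were protein coding. A further 19 rows fitted the names but were of another gene type and were left out. The genes were sorted by particle into 8 Sm core genes, 6 of the U1 particle and its partners, and 13 of the U2 particle and U2AF. Another 3 were of the U4/U6 particle, 7 of the U6 LSm ring and 4 of the U5 particle. The rest were 4 later-acting PRPF factors and 6 LSm genes that act elsewhere.

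RNA was sequenced from BHT101, an established human cell line from an anaplastic thyroid carcinoma, in 6 libraries. The control group was 3 libraries of cells given a control plasmid (NC), and the other group was 3 libraries of cells given a plasmid for SK4. SK4 is the calcium-activated potassium channel encoded by KCNN4. All 6 cell samples were transfected with Lipofectamine 2000 and collected 48 h later, so both groups carry a plasmid and the reagent. Transfection is transient and the labels do not give the share of cells that took up the plasmid. The treatment label of control replicate 3 names the line as BHT102, while its other labels name BHT101. The series title names splicing as its interest, which makes the level of the splicing machinery itself a question of the design. Nothing in the labels ties the 3 libraries of a group to separate cultures. The p-values therefore reflect the spread among these libraries alone, which may be technical. FPKM per gene hold no junction reads, so the use of splice sites itself was not analysed here.

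Introns are recognised by small nuclear ribonucleoprotein particles, or snRNPs, each built of a small nuclear RNA and proteins. The U1 snRNP pairs with the 5′ splice site, U2AF binds the polypyrimidine tract and the 3′ splice site, and the U2 snRNP, with its SF3A and SF3B parts, settles on the branch point. The U4/U6.U5 tri-snRNP then joins, U4 is unwound from U6, and the catalytic centre forms on PRPF8. The U1, U2, U4 and U5 RNAs carry a ring of Sm proteins, whereas U6 carries the related LSm ring. These are housekeeping genes in nearly every cell type.

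The promoters are shown first because these genes are broadly expressed and a shared promoter word is a feature the choice of genes did not use. RefSeq promoter windows on GRCh38.p14, each running from 250 bases before the start site to 50 after it, matched 43 of the 51 genes. The word CCGGAAG, the core of an ETS-family site, was searched on both strands and lay in the windows of 19 of these 43 genes (44.2%). The same word lay in the windows of 24.2% of 7772 tested protein-coding genes and of 12.2% of all 27305 genes with a window. The 19 genes were LSM5, LSM8, PRPF18, PRPF6, SF3A1, SF3A2, SF3A3, SF3B2, SF3B4, SF3B6, SNRNP200, SNRPA1, SNRPB, SNRPB2, SNRPC, SNRPD2, SNRPE, SNRPG and U2AF2, and so came from the Sm, U1, U2, U5, LSm ring and later-factor groups. The SNRPE window ran from 203861597 to 203861896 and so lay mostly inside the annotated gene, which begins at 203861603. Other words were searched the same way. GATGGCGG (YY1) lay in 11.6% of the 43 genes against 6.3% of the tested coding genes, GCATGCGC (NRF1) in 9.3% against 6.9%, and ATTGGCT (NFY) in 7.0% against 11.9%. GGGCGG (SP/KLF) lay in 67.4% against 78.7%. TATAAA lay in the window of 1 of the 43 genes, SNRPC (2.3%), against 7.8%. These words can overlap one another, and a match is a description of the letters in the window only.

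The 4 promoters below were chosen for the results that follow. SNRPB was the most abundant of the genes, and SF3B6 is one of those lowest in both control replicate 3 and SK4 replicate 2 within their groups. PRPF6 and LSM7 are 2 of the 4 genes whose control and SK4 values did not overlap. Capitals mark the ETS, YY1 and NRF1 words. Each is printed 5′ to 3′ on the gene's own strand.
SNRPB, chr20:2470740-2471039, minus strand: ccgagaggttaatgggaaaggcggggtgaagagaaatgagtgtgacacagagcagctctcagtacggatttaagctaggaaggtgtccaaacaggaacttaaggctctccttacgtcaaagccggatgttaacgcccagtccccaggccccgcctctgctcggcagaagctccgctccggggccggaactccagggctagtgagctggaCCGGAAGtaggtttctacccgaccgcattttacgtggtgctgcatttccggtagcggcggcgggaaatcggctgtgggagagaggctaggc
SF3B6, chr2:24076277-24076576, minus strand: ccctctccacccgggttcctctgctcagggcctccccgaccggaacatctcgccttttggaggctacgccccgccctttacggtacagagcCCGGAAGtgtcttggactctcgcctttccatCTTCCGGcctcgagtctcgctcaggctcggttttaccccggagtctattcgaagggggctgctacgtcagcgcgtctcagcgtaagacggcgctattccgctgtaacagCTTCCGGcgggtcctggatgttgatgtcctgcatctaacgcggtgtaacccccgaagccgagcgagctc
PRPF6, chr20:63980882-63981181, plus strand: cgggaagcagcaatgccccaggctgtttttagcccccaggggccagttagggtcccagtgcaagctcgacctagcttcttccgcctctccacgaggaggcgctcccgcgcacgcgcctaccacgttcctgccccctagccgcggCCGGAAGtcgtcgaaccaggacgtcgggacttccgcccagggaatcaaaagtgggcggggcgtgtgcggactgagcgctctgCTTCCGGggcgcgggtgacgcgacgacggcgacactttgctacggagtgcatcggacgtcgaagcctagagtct
LSM7, chr19:2328537-2328836, minus strand: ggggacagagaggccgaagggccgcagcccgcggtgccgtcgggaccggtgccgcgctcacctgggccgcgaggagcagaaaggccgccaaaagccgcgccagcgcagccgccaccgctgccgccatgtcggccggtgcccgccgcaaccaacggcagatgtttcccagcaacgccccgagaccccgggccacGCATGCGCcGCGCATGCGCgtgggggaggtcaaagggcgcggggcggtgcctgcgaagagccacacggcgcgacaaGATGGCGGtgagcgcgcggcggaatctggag
SNRPB held the ETS word once, beginning 41 bases before the start site. SF3B6 held it 3 times, beginning 159, 128 and 19 bases before the start. PRPF6 held it at 106 and 24 bases before the start. LSM7 lacked it, and instead held the NRF1 word at 57, 48 and 46 bases before the start, the last 2 overlapping on opposite strands, and the YY1 word from base 20 after the start.

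The values are FPKM, fragments scaled by gene length and by the mapped fragments of the library, as the authors deposited them. From the steps between low values of short single-exon genes the libraries were estimated to hold 29700000 to 38500000 fragments, control replicate 3 being the shallowest. A gene of 1 kb at 1 FPKM then has a counting error of 16.1% to 18.3% of its value. KCNN4 was at 8.31, 8.26 and 8.52 FPKM in the control libraries and at 184.14, 147.66 and 169.2 FPKM in the SK4 libraries, 8.36 ± 0.138 against 167 ± 18.3 (SD, n = 3 each). Its fitted fold was 18.8 (limma adjusted p = 8.83e-07), and the exact two-sided permutation test over the 6 libraries gave p = 0.1, the smallest it allows. All 6 epithelial markers examined were expressed, KRT19 reaching 258.5 FPKM. Of the markers of other cell types, 1 of 5 leukocyte markers (CD14, up to 4.43 FPKM), 1 of 5 fibroblast markers (LUM, up to 31.21 FPKM) and 0 of 4 endothelial markers passed the filter on low values. The 7 thyroid follicular markers were nearly absent, the highest being PAX8 at 0.4 FPKM, so the tissue of origin named for the line was not visible in them. Control replicate 3 and SK4 replicate 2 were often the lowest libraries of their groups, in 62.0% and 48.7% of tested genes. The median log2 deviation over tested genes was -0.097 in control replicate 3 from the mean of the other 2 controls, and -0.036 in SK4 replicate 2 from the mean of the other 2 SK4 libraries. This shift alone did not single out SK4 replicate 2. Median deviations from the gene mean were 0.0384, -0.02 and 0.00259 in SK4 replicates 1, 2 and 3.

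Differences between the groups were fitted with limma on log2(FPKM + 0.5) for the 11139 rows that reached 1 FPKM in at least 3 libraries, and adjusted p-values cover all of these rows. Of the 51 spliceosome genes 49 were tested. None of the 49 passed an adjusted p of 0.05, and KCNN4 was the only gene of the 11139 that did (0.00898%). By an unadjusted p of 0.05, 1 of the 49 passed, LSM14B, against 184 of all tested genes (1.65%). The median log2 difference of SK4 from control was -0.0011 over the 49 genes, beside 0.011 over all tested genes. It was above 0 in 21 and below 0 in 28 of the 49, and was lowest in LSM14B, at -0.12. In bulk RNA fewer cells of a type and less RNA per cell cannot be told apart.

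The size of change that these libraries leave room for was small. For 49 of 49 spliceosome genes the 95% interval of the fold excluded a change of 1.5-fold up or down, as it did for 96.8% of all tested genes. Among the 49 the lowest lower bound was 0.766, for PRPF38B, whose upper bound was 1.33. The spread within groups was 0.054 on the log2 scale for the median spliceosome gene (SD) against 0.095 for the median tested gene, and the median level was 23.5 FPKM against 5.17 FPKM. Levels of the 49 ran from 1.45 FPKM for PRPF40B to 354 FPKM for SNRPB. Across the 49 genes the log2 level went down with the log2 length of the longest coding transcript (Pearson r -0.58, Spearman rho -0.63), a description across genes that are not independent. FPKM is itself divided by gene length, so part of this fall can be built into the unit.

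**Figure D1:**
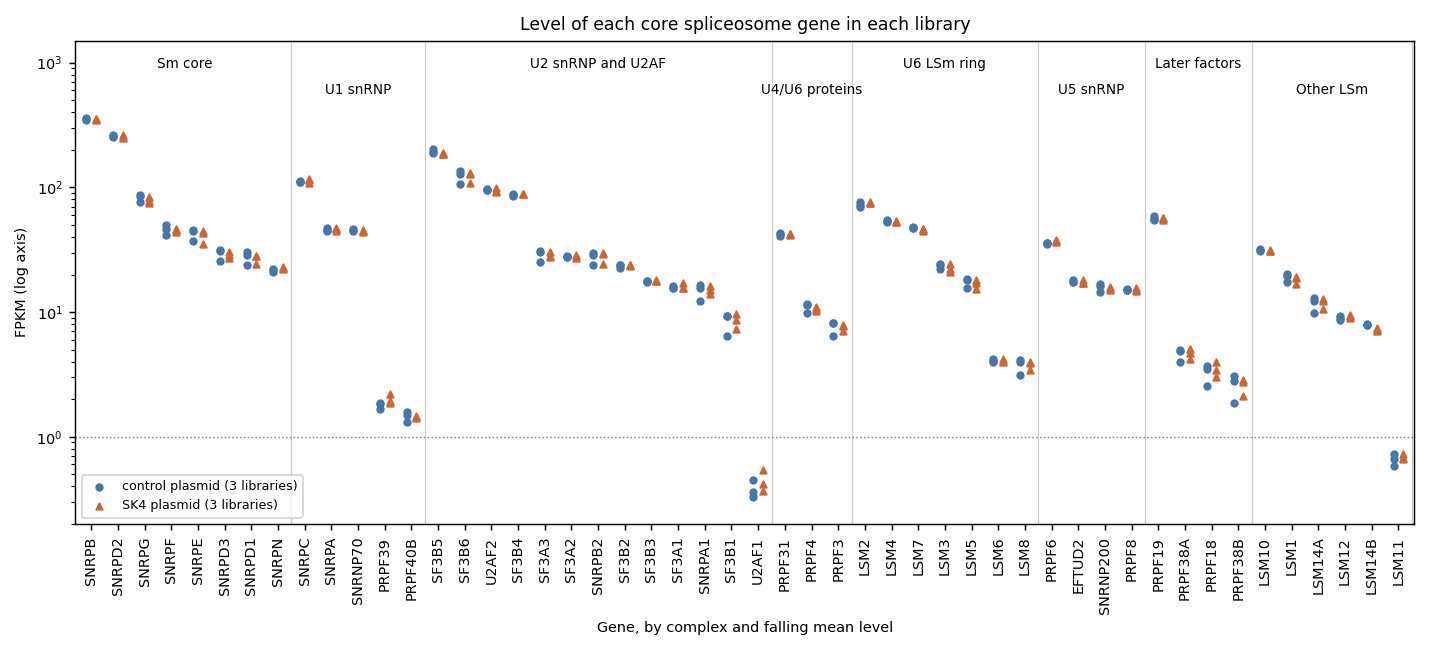
FPKM of the spliceosome genes by particle on a log axis, one point per library, circles for the controls and triangles for the SK4 libraries, with a dotted line at 1 FPKM. Points of the 2 groups lie beside each other at similar levels. Genes sorted to one particle can lie far apart, among the U1 genes from 1.45 FPKM for the associated PRPF40B to 112 FPKM for SNRPC.

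The Sm core genes encode the ring that all snRNPs except U6 share. SNRPB, which encodes the ring proteins SmB and SmB′, is on chromosome 20 (GRCh38, 2461634 to 2470853, minus strand). It was at 347.46, 354.43 and 362.29 FPKM in the controls and 345.15, 355.88 and 356.21 FPKM with SK4. The ranges overlapped, and the log2 difference was -0.0094 (95% interval -0.079 to 0.061). SNRPD2 was next at 258 ± 5.73 FPKM (SD, n = 6), and then SNRPG at 80.6 ± 4.97 FPKM. SNRPG, the SmG gene, was at 84.96, 86.62 and 76.53 FPKM in the controls and 78.24, 74.27 and 83.03 FPKM with SK4, a log2 difference of -0.074 (-0.22 to 0.067). Its lowest SK4 value was replicate 2 and its lowest control value replicate 3. SNRPF at 45.6 ± 2.64 FPKM and SNRPE at 41.8 ± 4.59 FPKM had overlapping ranges, as did SNRPD3 at 29.1 ± 2.25 FPKM and SNRPD1 at 27.3 ± 2.70 FPKM. From SNRPB to the lowest, SNRPN, the Sm core spanned 16-fold in level per length. SNRPN stands in for SNRPB, so these are not genes of proteins held side by side in the ring. Without SNRPN the levels ran from 354 FPKM for SNRPB to 27.3 FPKM for SNRPD1, although the ring holds these proteins in equal number.

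SNRPN, the SmN gene that stands in for SNRPB in brain and is imprinted, was the lowest of the Sm core at 22.1 ± 0.654 FPKM (SD, n = 6). Its gene lies on chromosome 15 (GRCh38, 24823637 to 24978723, plus strand). Its controls were 21.9, 21.03 and 22.16 FPKM and its SK4 libraries 21.94, 22.85 and 22.7 FPKM. These ranges overlapped, with a log2 difference of 0.051 (-0.045 to 0.15). It was the one Sm core gene of 8 with a difference above 0, and the median of the 8 was -0.024, or -0.0936 without control replicate 3 and 0.0158 without SK4 replicate 2. Of its longest coding transcript, 38.6% of the 100-base windows also occurred in transcripts listed under other genes, most of them in SNURF, which shares the SNRPN locus. SNURF was listed at 0.02, 0.0 and 0.0 FPKM in the controls and 0.02, 0.0 and 0.0 FPKM with SK4. The level of SNRPN is uncertain where the authors' counting could split such reads. SNRPE shared 10.6% of its windows and SNRPB 5.21%.

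The U1 genes, partners of the particle included, showed the widest spread of levels, 77.5-fold. SNRPC, SNRPA and SNRNP70 alone lay closer together, at 112, 46.1 and 45.2 FPKM (means, n = 6). Of the U1 genes, 4 had differences above 0 and 2 below, with a median of 0.015. SNRPC, the U1-C protein that steadies pairing at the 5′ splice site, was at 112.49, 109.91 and 111.2 FPKM in the controls and 108.28, 116.2 and 115.36 FPKM with SK4. SNRNP70, the U1-70K protein that binds the U1 RNA, was at 44.56, 46.78 and 45.58 FPKM against 44.93, 45.23 and 43.9 FPKM. Both pairs of ranges overlapped, with log2 differences of 0.026 (-0.060 to 0.11) and -0.030 (-0.11 to 0.053). SNRPA, the U1-A protein, was at 46.1 ± 1.11 FPKM (SD, n = 6), a level whose range overlapped that of SNRNP70.

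The U1-associated genes PRPF40B and PRPF39 lay far lower per length. PRPF40B was at 1.49, 1.31 and 1.58 FPKM in the controls and 1.44, 1.47 and 1.4 FPKM with SK4, the lowest tested gene of the set. Its ranges overlapped, with a log2 difference of -0.015 (-0.22 to 0.19). PRPF39 was at 1.86, 1.83 and 1.67 FPKM against 2.19, 1.94 and 1.88 FPKM. All 3 of its SK4 values exceeded all 3 controls, although the 1.88 FPKM of SK4 replicate 3 lay next to the 1.86 FPKM of control replicate 1. Its log2 difference was 0.13 (-0.068 to 0.33, limma adjusted p = 0.99997).

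In the U2 particle and U2AF, 7 of 12 tested genes had differences above 0 and 5 below, with a median of 0.012. SF3B5, a small SF3B subunit, was the highest at 192.64, 187.52 and 202.15 FPKM in the controls and 187.8, 186.4 and 185.54 FPKM with SK4. Only SK4 replicate 1 reached into the control range, and the log2 difference was -0.056 (-0.14 to 0.025). SF3B1, the large scaffold of SF3B and a splicing factor often mutated in blood cancers, was the lowest tested U2 gene. It lies on chromosome 2 (GRCh38, 197389784 to 197435091, minus strand). It was at 9.35, 9.21 and 6.46 FPKM in the controls and 9.73, 7.35 and 8.69 FPKM with SK4, a log2 difference of 0.050 (-0.31 to 0.41). Control replicate 3 deviated from the mean of the other controls by -30.4%, and SK4 replicate 2 from the mean of the other SK4 libraries by -20.2%. SF3B6, the subunit that touches the branch point, behaved alike at 134.21, 128.58 and 107.07 FPKM against 129.07, 107.81 and 129.91 FPKM. SF3B4 at 87.8 ± 1.54 FPKM, SF3A2 at 27.8 ± 0.378 FPKM and SF3B3 at 17.7 ± 0.203 FPKM (SD, n = 6) showed no such drop.

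U2AF2, the large U2AF subunit that reads the polypyrimidine tract, was at 96.09, 95 and 96.88 FPKM in the controls and 93.08, 98.48 and 91.08 FPKM with SK4. The ranges overlapped, with a log2 difference of -0.028 (-0.12 to 0.060). Its partner U2AF1, which reads the AG at the 3′ splice site, was listed at 0.45, 0.33 and 0.36 FPKM against 0.42, 0.37 and 0.54 FPKM, and did not reach the filter. U2AF1 is on chromosome 21 (GRCh38, 43092956 to 43107587, minus strand). Of the 100-base windows of its longest coding transcript, 87.3% also occurred in the annotated entry U2AF1L5. That entry is listed separately, at 0.36, 0.41 and 0.37 FPKM against 0.33, 0.41 and 0.36 FPKM. How reads that fit both copies were counted is not given in the sources used here, so the level of U2AF1 could not be read from these values. SNRPA1, the U2-A′ protein, was at 14.9 ± 1.54 FPKM (SD, n = 6) and shared 22.2% of its windows, a smaller part than in U2AF1. Its level is uncertain only as far as reads of that part were split.

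The 3 U4/U6 genes had a median log2 difference of -0.00013. PRPF31, which joins U4/U6 to U5 and is mutated in retinitis pigmentosa, was at 42.9, 42.15 and 40.79 FPKM in the controls and 41.26, 42.11 and 42.44 FPKM with SK4, a log2 difference of -0.00013 (-0.084 to 0.084). PRPF4 was at 11.37, 11.68 and 9.91 FPKM against 10.67, 10.99 and 10.21 FPKM, and PRPF3, its binding partner, at 8.24, 8.22 and 6.38 FPKM against 7.93, 7.1 and 7.69 FPKM. Control replicate 3 was the lowest of the controls in all 3 genes, and without it the median of the 3 was -0.113.

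The LSm ring of U6 is the counterpart of the Sm core. LSM2 was the highest at 69.74, 71.95 and 76 FPKM in the controls and 74.69, 75.15 and 76.91 FPKM with SK4, with ranges that overlapped at control replicate 3 and a log2 difference of 0.059 (-0.034 to 0.15). LSM4 at 53.3 ± 0.976 FPKM and LSM7 at 46.8 ± 1.11 FPKM (SD, n = 6) followed. LSM3 was at 24.36, 23.99 and 21.95 FPKM against 22.07, 21.03 and 24.15 FPKM, and LSM5 at 17.2 ± 1.34 FPKM. LSM8, the subunit that sets the nuclear ring apart from the cytoplasmic one, was the lowest at 4.13, 3.98 and 3.14 FPKM against 3.88, 3.44 and 3.98 FPKM, and its range overlapped that of LSM6 at 4.06 ± 0.106 FPKM. From LSM2 to LSM8 the ring spanned 19.7-fold per length. LSM1, which replaces LSM8 in the cytoplasmic ring of mRNA decay, was at 18.6 ± 1.26 FPKM, above LSM8 in each of the 6 libraries. Of the 7 genes of the nuclear ring, 2 had differences above 0 and 5 below, with a median of -0.026.

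The U5 genes had the narrowest range of levels, 2.41-fold from the highest to the lowest, and 1 difference above 0 and 3 below, with a median of -0.011. PRPF6, a bridge of the tri-snRNP, was at 35.87, 35.41 and 35.9 FPKM in the controls and 36.59, 38.01 and 36.84 FPKM with SK4. PRPF8, the scaffold of the catalytic centre, was at 14.94, 15.42 and 15.03 FPKM against 14.96, 15.67 and 14.64 FPKM, with overlapping ranges and a log2 difference of -0.0041 (-0.11 to 0.10). EFTUD2, the GTPase, was at 17.5 ± 0.461 FPKM and SNRNP200, the helicase that unwinds U4 from U6, at 15.7 ± 0.793 FPKM (SD, n = 6), whose range overlapped that of PRPF8.

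Of the later factors, PRPF19, the ubiquitin ligase at the centre of its own complex, was at 54.78, 59.4 and 55.99 FPKM in the controls and 54.39, 57.07 and 57.01 FPKM with SK4. The other 3 were low, and the range of PRPF18 overlapped those of PRPF38A and PRPF38B. Of the 4, 3 had differences above 0 and 1 below, with a median of 0.015 that was -0.0694 without control replicate 3 and 0.0973 without control replicate 2. PRPF18, which acts in the second step, was at 3.52, 3.72 and 2.57 FPKM against 3.03, 3.45 and 3.94 FPKM. It shared 37.6% of its windows with other genes and is uncertain. PRPF38B was at 2.8, 3.09 and 1.88 FPKM against 2.87, 2.14 and 2.76 FPKM, equal means of 2.59 FPKM with the widest within-group spread of the set. PRPF38A was at 4.63 ± 0.444 FPKM (SD, n = 6).

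The remaining LSm genes act outside the spliceosome. LSM10, part of the U7 particle of histone mRNA processing, was the highest at 30.68, 31.84 and 31.6 FPKM in the controls and 30.82, 31.22 and 30.99 FPKM with SK4. LSM11, its U7 partner, was below the filter at 0.73, 0.66 and 0.58 FPKM against 0.68, 0.66 and 0.73 FPKM. The mRNA-silencing proteins LSM14A and LSM14B were at 11.8 ± 1.29 and 7.56 ± 0.411 FPKM (SD, n = 6). Of the 5 tested genes, 2 had differences above 0 and 3 below, with a median of -0.016, or -0.087 without control replicate 3. LSM12 was at 9.09 ± 0.317 FPKM, with 20.5% of its windows shared with the pseudogene LSM12P1.

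**Figure D2:**
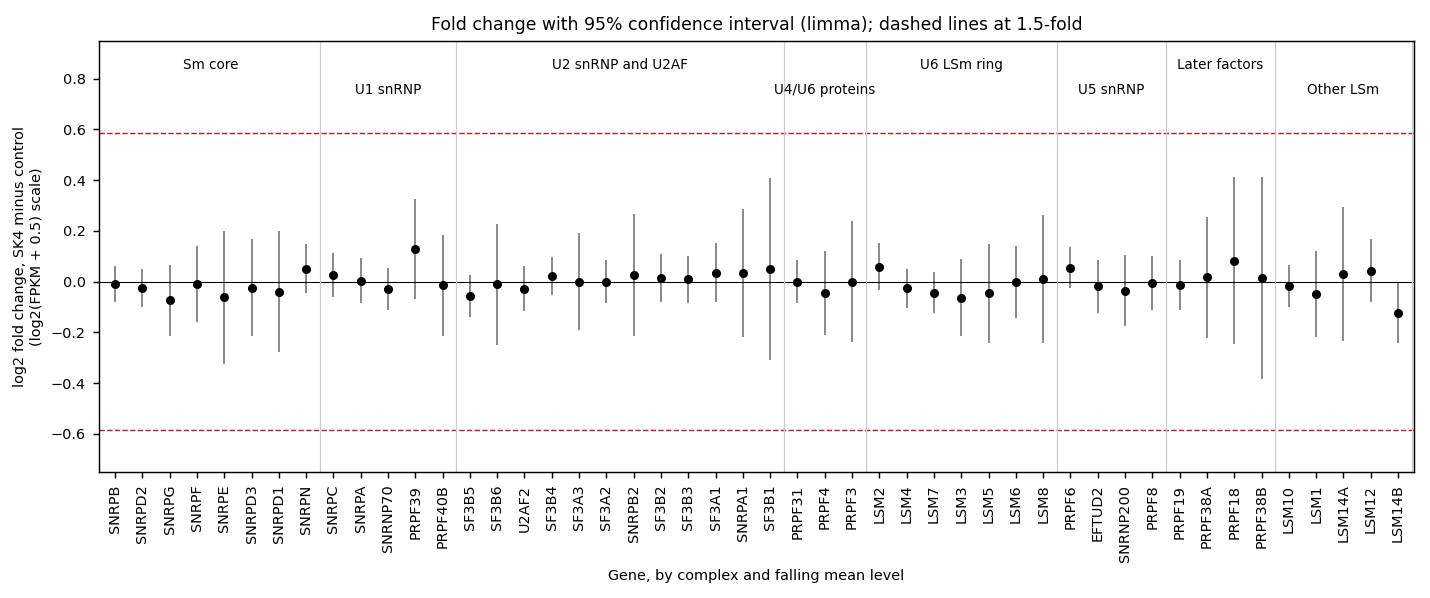
Log2 difference of SK4 from control for the tested spliceosome genes by particle, points with 95% limma intervals and dashed lines at 1.5-fold. Every interval excludes a 1.5-fold change, and the interval of LSM14B, from -0.24 to -0.0070, is the one that does not cross 0.

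In 4 of the 49 genes the control and SK4 values did not overlap. All 3 SK4 values were above all controls in PRPF39 and PRPF6 (2 of 49), where 393 of the 11139 tested genes did so (3.53%). They were below in LSM7 and LSM14B (2 of 49), where 202 did so (1.81%). LSM14B, on chromosome 20 (GRCh38, 62122461 to 62135378, plus strand), was at 7.81, 7.83 and 8.07 FPKM in the controls and 7.42, 7.19 and 7.02 FPKM with SK4, or 7.90 ± 0.145 against 7.21 ± 0.201 FPKM (SD, n = 3 each). Its log2 difference was -0.12 (-0.24 to -0.0070), with a limma unadjusted p of 0.0406 and an adjusted p of 0.99997. Leaving out any single library raised the unadjusted p to between 0.0548 and 0.124. LSM7 was at 47.3, 46.87 and 48.42 FPKM against 44.99, 46.77 and 46.56 FPKM, with control replicate 2 and SK4 replicate 2 nearly touching. Its log2 difference was -0.043 (-0.12 to 0.038), and that of PRPF6 was 0.055 (-0.026 to 0.14), both with a limma adjusted p of 0.99997. None of the 4 was therefore called.

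A larger movement ran between libraries of the same group. Control replicate 3 was below both other controls in 29 of the 49 genes (59.2%) and SK4 replicate 2 below both other SK4 libraries in 19 (38.8%). Over all tested genes the shares were 62.0% and 48.7%. Both held in the same 19 genes (38.8%), beside 41.0% of all tested genes, so the spliceosome genes lay near the background here. By particle, both held in 5 of 8 Sm core genes, 1 of 6 U1 genes, 5 of 12 U2 genes, 1 of 3 U4/U6 genes, 3 of 7 LSm ring genes, 0 of 4 U5 genes, 2 of 4 later factors and 2 of 5 other LSm genes. In control replicate 3 the log2 deviation from the mean of the other controls reached -0.53 in PRPF38B and -0.49 in SF3B1, and the highest was 0.13 in PRPF40B. In SK4 replicate 2 it was -0.33 in SNRPE and PRPF38B, and the highest was 0.12 in SF3A1. Across the 49 genes the 2 deviations had a Pearson r of 0.81 and a Spearman rho of 0.67, beside 0.53 and 0.63 across all tested genes with a GC value. Genes of one library share its depth and preparation and are not independent replicates.

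**Figure D3:**
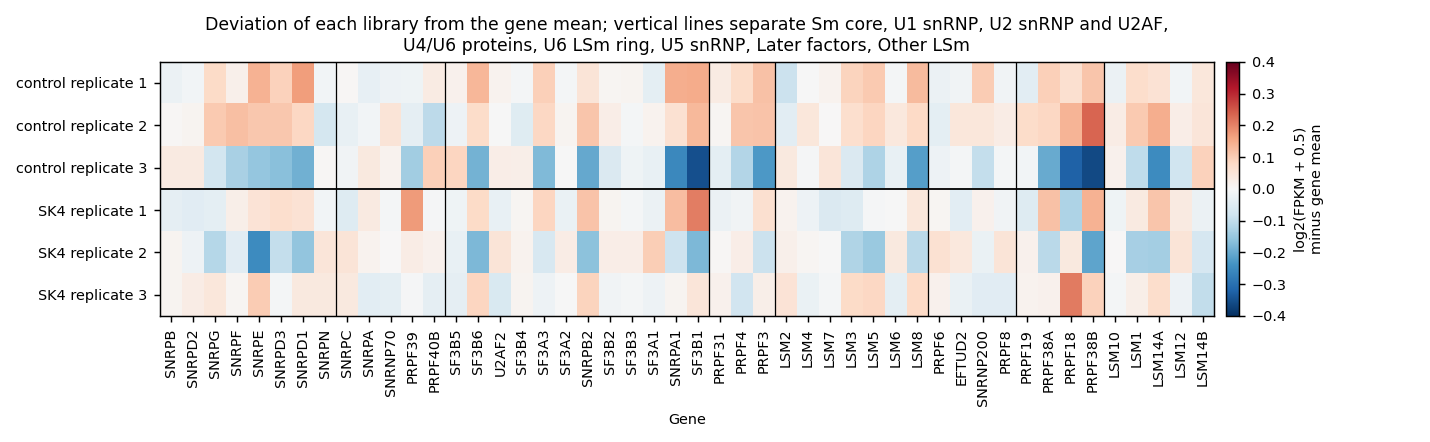
Heat map of log2(FPKM + 0.5) minus the mean of the gene over the 6 libraries, with libraries in rows, controls above the horizontal line, and spliceosome genes in columns by particle; blue is below the gene mean and red above it, and the colour scale ends at the bounds drawn on its bar. The rows of control replicate 3 and SK4 replicate 2 are both blue in many of the same columns, among them PRPF38B, SF3B1 and SNRPE.

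This movement went with the GC content of the transcripts, with r of 0.73 across the 49 genes for control replicate 3 and 0.69 for SK4 replicate 2 (rho 0.74 and 0.63). Among 25 spliceosome genes with under 50% GC in the longest coding transcript, control replicate 3 was the lowest control in 24 (96.0%), and both libraries were the lowest of their groups in 18 (72.0%). Among the 24 genes with 50% or more, the counts were 5 (20.8%) and 1 (4.17%). Over all tested genes the same shares were 85.0% and 70.2% under 50% GC, and 39.9% and 12.8% at or above it. The low-GC genes had a median deviation of -0.28 in control replicate 3 and -0.15 in SK4 replicate 2, on the log2 scale, and a within-group SD of 0.14. The high-GC genes had 0.0052, 0.027 and 0.036, with exceptions such as SNRPD3 at 51.5% GC, whose deviations were -0.27 and -0.13. SF3B1 at 41.0% GC, PRPF38B at 42.0% and SNRPE at 39.0% stood among the first, and SF3A2 at 66.6%, SNRNP70 at 63.9% and U2AF2 at 61.1% among the second. SNRPN at 49.95% was the low-GC gene in which control replicate 3 was not the lowest, and LSM6, at 40.4%, kept within 0.048 and 0.058 of the other libraries in size. After the log2 values of each library were corrected for GC and length, the low-GC medians were -0.13 and -0.068 and the high-GC medians -0.11 and -0.065, and r between the 2 deviations was 0.64. The correction removed the trend with GC and length but kept the mean offset of each library. Similar low-GC and high-GC medians therefore follow from the fit itself, and both still hold that offset. The median within-group SD of the 49 genes was 0.069 after the correction and 0.054 before it. Over all tested genes with a GC value it was 0.083 after and 0.095 before, and r was 0.30 after and 0.53 before. The low libraries belong to opposite groups, and without both of them none of the 49 genes was called and the median log2 difference was -0.035. What set these libraries apart was not tested.

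**Figure D4:**
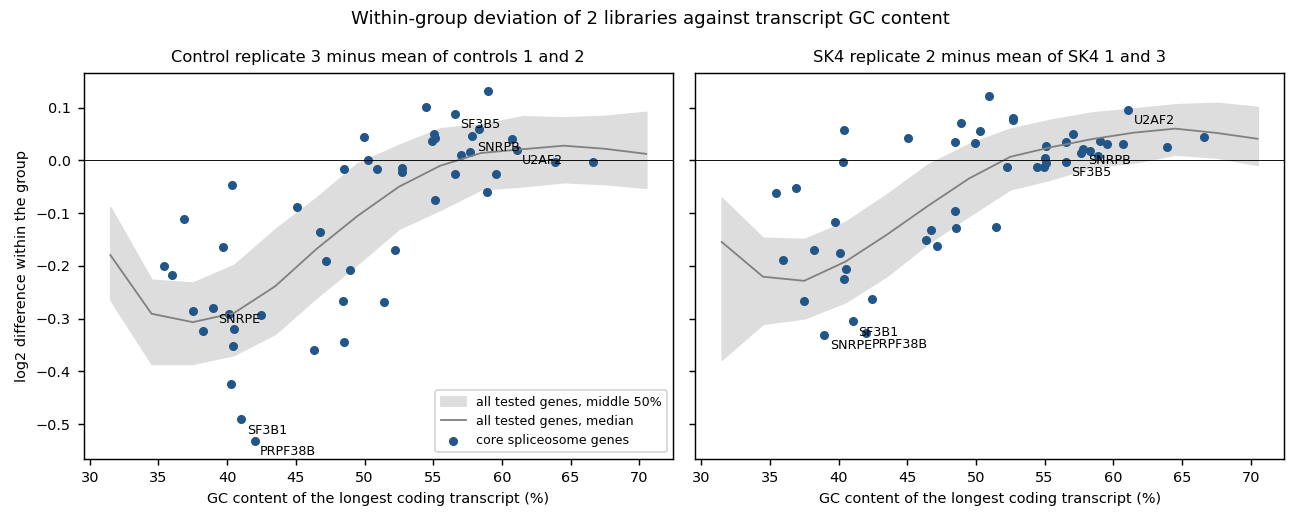
Log2 deviation of control replicate 3 (left) and of SK4 replicate 2 (right) from the mean of the other libraries of their groups against transcript GC content (percent), one point per spliceosome gene, with the median of all tested genes by GC bin as a line and the middle 50% of them as a band. Spliceosome genes under 50% GC have medians of -0.28 and -0.15, and those at or above 50% have medians of 0.0052 and 0.027.

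Other proteins of the splicing system were counted from lists of the pathway. Of 14 further proteins of the major snRNPs, all tested, 6 had differences above 0 and 8 below, with a median of -0.0093. Of 22 Prp19-complex and later-step proteins, 16 were above 0 and 6 below, with a median of 0.018. Of 8 proteins of the minor spliceosome, which removes a rare class of introns, 7 were tested, 6 above 0 and 1 below, with a median of 0.057, and RNPC3 was below the filter. Of 20 proteins of snRNP assembly and recycling, 10 were above 0 and 10 below. Their median was -0.000078. None of the tested genes of these lists was called, none had an unadjusted p under 0.05, and every interval excluded a change of 1.5-fold. GEMIN5, the assembly factor that recognises snRNAs, was at 5.67, 5.51 and 4.96 FPKM in the controls and 5.94, 5.81 and 6.0 FPKM with SK4, with a limma unadjusted p of 0.0867. The lists held 14, 22, 7 and 20 tested genes, and among these GEMIN5 alone had all SK4 values above all controls (3.53% of all tested genes). In 2 other tested genes of the lists all SK4 values lay below (1.81% of all tested genes). These were GEMIN6, another assembly factor, at 8.49, 8.51 and 8.6 FPKM against 8.38, 8.4 and 8.11 FPKM, and PPIH, a cyclophilin of the U4/U6 particle, at 10.1, 9.93 and 9.96 FPKM against 9.89, 9.34 and 9.73 FPKM.

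The RNA partners could be seen only faintly. The snRNAs carry no poly(A) tail, and the libraries were made from poly(A)-captured RNA, so what remains of them is not a measure of their level. From the rows of type snRNA, 62 were picked by spliceosomal names, variants and pseudogenes included. For U6 itself only RNU6-1, RNU6-2, RNU6-7, RNU6-8 and RNU6-9 were eligible, so other snRNA rows may lie outside the 62. The highest of the 62 was RNU6-8 at 6.07 FPKM, and 18 passed the filter. None was called, and 11 were above 0 and 7 below, beside 6444 above and 4695 below over all tested genes. Of the 18, 4 had a limma unadjusted p under 0.05, beside 1.65% of all tested genes, all 4 with values above 0. The lowest p, 0.00993, was that of the U1 variant RNVU1-29, listed at 0.85, 0.63 and 1.03 FPKM in the controls and 2.51, 1.49 and 1.27 FPKM with SK4. At the estimated depths these stood for 5, 4 and 5 fragments against 15, 9 and 8. Among its controls only replicate 3 reached 1 FPKM, so RNVU1-29 passed the filter through its SK4 libraries. Its p is therefore no support for a difference, and the 4 of 18 include it. RNU5A-1 was at 3.36, 2.01 and 1.74 FPKM against 3.78, 3.04 and 3.82 FPKM, or 14, 9 and 6 fragments against 16, 13 and 17. The summed level of the 62 snRNA genes was 47.01 to 54.1 FPKM in the controls and 46.89 to 54.91 FPKM with SK4, ranges that overlapped throughout.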

How the data were processed

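Poly(A)-captured RNA of 6 libraries was made into strand-marked (dUTP) libraries and sequenced as 150 nt pairs on an Illumina machine, per the labels' protocols. Alignment was with HISAT2 to GRCh38, per the submitters' processing notes; the sources used here do not give its version, the counting tool, the use of strand or the annotation release. FPKM, to 2 decimals, is the only unit the authors deposited, in 1 table of 32896 rows without counts. Plasmid and chromosomal KCNN4 reads are not separated in it. Library depth was estimated from the steps between low FPKM values of 561 single-exon genes under 160 nt, of which 99.4% to 99.5% came out as whole fragments within 0.1. That depth is an estimate, and no count test was run.

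Values were tested as log2(FPKM + 0.5) by moderated linear models (R 4.3.3, limma 3.58.1; trend and robust options on) for rows at 1 FPKM or more in at least 3 of 6 libraries. P-values were adjusted by Benjamini-Hochberg over all 11139 rows tested. A fold on this scale understates the change of low genes. The test was run on simulated data with noise drawn independently for each gene and library. Shifts shared by the genes of a library, as in control replicate 3 and SK4 replicate 2, were not simulated. That run therefore does not check the test under such shifts. GC content, coordinates and shared 100-base windows came from GENCODE 29, and promoters from RefSeq. The promoters of SNRPD1, PRPF39, SF3B3, LSM14A, LSM6, PRPF3 and LSM1 were among those with no entry. Of the 51 genes, 1 is not reported here by name or drawn. Figures were drawn with matplotlib 3.10.9.

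The genes, the lists and the tests were chosen with earlier results of these data known. Genes named in full were, for each particle, those of highest and lowest level, smallest p and largest absolute difference, with SF3B1, U2AF1, U2AF2, SNRNP70, PRPF8, SNRPB and SNRPN in any case, and genes below the filter. Others are given by level, or were named after their values were seen: LSM7, which did not overlap, genes that moved between libraries, and GEMIN5, GEMIN6 and PPIH, which did not overlap. Alternatives were other pseudocounts, filters, scalings, a GC and length correction, library weights, an untrended prior, a replicate block and leaving out libraries.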

Additional observations from a re-analysis of the deposited data

How the results depend on the processing

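No spliceosome gene was called under any of the alternatives run, the lowest adjusted p of any of them being 0.471, and every interval excluded a change of 1.5-fold for each gene tested. KCNN4 was called in each. The median log2 difference of the spliceosome genes ran from -0.0345, without control replicate 3 and SK4 replicate 2, to 0.016, without control replicate 1. Leaving out single libraries moved the U4/U6 median between -0.113 and 0.016, that of the other LSm genes between -0.087 and 0.0043, that of the later factors between -0.0694 and 0.0973 and that of the Sm core between -0.0936 and 0.0158, the lowest of each without control replicate 3. The U1, U2, U5 and LSm ring medians stayed between -0.035 and 0.0275. Without control replicate 3 and SK4 replicate 2 together, 4 genes were called over the whole table (KCNN4, 7SK, SNORD4A and SNORD99) and the U5 median was -0.0433. The cause was not tested. Unadjusted p-values under 0.05 numbered 905 with library weights, LSM14B, LSM2, PRPF4 and SNRNP200 among them, 419 without control replicate 3, with LSM2 and SNRPG, and 565 without both libraries, with LSM2, PRPF4 and SNRPG, against 184. For 24 named genes, 44 of 402 values under alternatives had the opposite sign, in 11 genes, and none moved by over 1 SD. In limma, LSM14B had an unadjusted p of 0.0636 after median centring, with adjusted p between 0.5292 and 1 over its alternatives.

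Same-numbered control and SK4 libraries deviated with correlations of 0.306, -0.41 and -0.154 across genes. Whether the replicate numbers pair the samples was not tested. The replicate block left 1 gene called, 0 of them spliceosome genes, and gave LSM14B an unadjusted limma p of 0.0941. Control replicate 3 correlated best with SK4 replicate 2, at 0.528. Genes of a few FPKM, such as PRPF40B and PRPF39, are those where depth limits precision most.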
